A study of Mus musculus with 18 samples.

Results

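The proteasome genes of mouse germinal centre B cells were taken as the rows of both deposited expression tables whose gene symbol is Psma, Psmb, Psmc, Psmd, Psme, Psmf or Psmg followed by a number, with names holding a hyphen left out. That rule found 49 of 30452 genes. They comprise 7 alpha and 7 constitutive beta genes of the core particle, 3 immunoproteasome beta genes (Psmb8, Psmb9 and Psmb10), the tissue-restricted core genes Psma8 and Psmb11, 6 ATPase genes (Psmc), 14 non-ATPase genes of the regulatory particle (Psmd), 5 activator genes (Psme), the inhibitor gene Psmf1 and 4 core assembly chaperone genes (Psmg). Among the Psmd genes 3 encode base assembly chaperones (Psmd5, Psmd9 and Psmd10) and 11 encode subunits. The pseudogenes Psmb5-ps, Psmb6-ps, Psmb6-ps2 and Psmb7-ps2 were left out by name and reached at most 4.99 TPM in any library.

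The proteasome is the protease that degrades ubiquitin-tagged proteins. Its 20S core is a barrel of stacked rings: the outer alpha rings gate the entrance, and the inner beta rings hold the proteolytic sites of Psmb5 (chymotrypsin-like), Psmb6 (caspase-like) and Psmb7 (trypsin-like). The 19S regulatory particle binds the substrate, removes its ubiquitin and unfolds it with a ring of ATPases before passing it into the core. In lymphoid cells much of the core is built with Psmb8, Psmb9 and Psmb10 in place of the constitutive catalytic subunits, a form that favours peptides suited to MHC class I, and antibody-producing cells are known for their sensitivity to proteasome inhibitors.

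The cells were B1-8hi B cells, which carry a heavy chain that binds the hapten NP, transferred into C57BL/6 hosts primed 2 weeks earlier with ovalbumin in alum. The transferred mixture held 15% DECP cells (Ly75+/+, CD45.1) and 85% DECN cells (Ly75-/-, CD45.1/2). Ly75 encodes DEC205, the receptor through which an antibody to DEC205 joined to ovalbumin is meant to deliver antigen. The antibody was injected 6 days after footpad immunisation with NP-ovalbumin, and light zone germinal centre cells (B220+, CD38-, CD95+, CD83hi, CXCR4lo) were sorted from the popliteal lymph node. The groups were 3 DECP and 3 DECN libraries 12 h after the antibody, and, 24 h after it, 4 libraries of DECP cells from hosts given rapamycin at 2.5 mg/kg together with the antibody, 4 of DECP cells and 4 of DECN cells. Rapamycin inhibits the kinase complex mTORC1 in all cells of the host, so no group separates its action on the B cells from that on other cells, and no library of rapamycin-treated DECN cells was analysed here. The DECP and DECN cells shared hosts, antigen and antibody by design, and it is not stated in the labels whether the libraries of a group stem from separate animals. The p-values therefore reflect no more than the variation from library to library, part of which may be technical.

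Levels are given in TPM, a measure of transcript abundance scaled by transcript length and by the library's total, as the authors' pseudoalignment gave them. TPM keeps no read depth, so the depth of each library is unknown and no counting interval can be given. The 12 h and the 24 h values stand in separate tables. Levels and differences were compared within a table, except that the DECP against DECN differences at both times were set against each other in 1 fit. Genes at 1 TPM or more numbered 13114 to 13597 per 12 h library and 11128 to 12244 per 24 h library. Ly75 had 26.0 to 39.6 TPM in DECP libraries and 8.53 to 10.1 in DECN libraries at 12 h. At 24 h it had 8.66 to 19.0 TPM in rapamycin-treated DECP, 10.3 to 18.1 in DECP and 2.76 to 6.66 in DECN libraries, so the labels of DECP and DECN match the gene, which was not at 0 in DECN cells. Ribosomal protein genes took 3.51 to 4.62% of the TPM in DECP and 1.71 to 2.10% in DECN libraries at 12 h. At 24 h they took 23.7 to 26.0% in rapamycin-treated DECP, 18.8 to 22.4% in DECP and 18.6 to 21.3% in DECN libraries. The 11 germinal centre B cell markers, Cd79a and Bcl6 among them, were above 10 TPM in every library. Their summed level was 2509 to 3484 TPM in DECP and 3506 to 3915 TPM in DECN libraries at 12 h. At 24 h it was 4214 to 4880 TPM in rapamycin-treated DECP, 2935 to 3723 in DECP and 4806 to 5703 in DECN libraries. Among single markers of other cells, the macrophage gene Itgam was at most 0.0415 TPM in any library. The T cell receptor gene Trac was at most 1.88 and the endothelial gene Cdh5 at most 0.0680 TPM. Other markers of the same lists stood higher. The 6 stromal and endothelial markers summed to 19.2 to 37.1 TPM in DECP and 30.8 to 47.8 TPM in DECN libraries at 12 h. At 24 h they summed to 12.5 to 17.0 TPM in rapamycin-treated DECP, 7.56 to 16.2 in DECP and 14.7 to 27.9 in DECN libraries. The summed level of the 10 myeloid markers, nearly all of it Apoe, was 675 to 847 TPM in DECP and 1277 to 1664 TPM in DECN libraries at 12 h. At 24 h it was 622 to 1194 TPM in rapamycin-treated DECP, 419 to 625 in DECP and 1037 to 1135 in DECN libraries. That of the 8 T cell markers, led by Lck, was 171 to 186 TPM in DECP and 215 to 241 TPM in DECN libraries at 12 h, without overlap. At 24 h it was 154 to 171 TPM in rapamycin-treated DECP, 110 to 136 TPM in DECP and 139 to 188 TPM in DECN libraries. The sum hides markers that went the other way. By the limma test described below, 1 of the 3 T cell markers tested at 24 h was higher in DECP than in DECN. Its log2 difference was 1.29, and 1 other marker was lower. Of all 12783 genes 348 were higher and 169 lower. With rapamycin against DECN 1 T cell marker was higher (1.12), as were 99 of all genes. The 5 plasma cell markers summed to 453 to 723 TPM in DECP and 659 to 747 TPM in DECN libraries at 12 h. At 24 h they summed to 452 to 786 TPM in rapamycin-treated DECP, 832 to 1161 TPM in DECP and 706 to 908 TPM in DECN libraries, and the plasma cell regulator gene Prdm1 was at most 1.05 TPM in any library. By the same test 4 of the 11 germinal centre B cell markers were lower in DECP than in DECN at 24 h, and none was higher. With rapamycin against DECP 3 of the 11 were higher, as were 84 of all 12783 genes. With rapamycin against DECN 1 of the 11 was lower, as were 68 of all genes. The part of these markers in the results below was not tested. In bulk libraries fewer cells of a kind and less RNA per cell cannot be told apart.

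All proteasome genes but Psma8 had a TPM above 1 in each of the 18 libraries. At 24 h the highest mean levels over the 12 libraries were those of Psmb8 (862 TPM), Psme1 (844), Psma3 (796), Psma7 (620) and Psma2 (598), and at 12 h those of Psmb4 (915), Psma7 (473), Psme1 (437) and Psma3 (411). TPM is scaled by transcript length, which allows no more than a rough comparison of genes within a table. The order of genes differed between the tables, with Psmb4 at rank 1 at 12 h and rank 8 at 24 h. The source of that difference was not tested. Psmb8, the inducible counterpart of Psmb5, stood above Psmb5 in each of the 18 libraries. The lowest mean levels were those of the testis-associated core gene Psma8, the thymus-associated core gene Psmb11 and, at 12 h, the chaperone gene Psmg4. Psmb11 had 9.83 to 14.6 TPM at 12 h and 1.44 to 4.78 TPM at 24 h. Psma8 never passed 1.08 TPM, did not pass the filter on low values and was not tested, which leaves 48 genes in each test. Psme2b is a near-identical copy of Psme2, so reads may be divided between them by an estimate and both values are uncertain.

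The first comparison, 24 h after the antibody, asked how proteasome genes differed in DECP cells set against DECN cells. All 7 alpha genes of the core rose in DECP cells, by between 0.51 and 0.90 on the log2 scale. No constitutive beta, immunoproteasome, ATPase or activator gene passed the test. Of the 14 non-ATPase genes 5 rose, as did the assembly chaperone gene Psmg2, and none of the 48 genes fell. A gene was called where limma, fitted to log2(TPM + 1) over all genes that reached 1 TPM in 4 or more libraries, gave a Benjamini-Hochberg adjusted p under 0.05. By that rule 13 of 48 proteasome genes rose, against 2.72% of all 12783 genes. Their median log2 difference was 0.39, and that of all genes tested was 0.00056. Without DECP replicate 1, DECP replicate 3 or DECN replicate 2, 8 genes were called in each case, and between 4 and 7 of the alpha genes passed with any 1 library left out. The 24 h libraries carried either of 2 second index sequences, with 2 libraries of each group under each. All 7 alpha genes were higher in DECP under both, with median log2 differences of 0.54 and 0.74.

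Psma4, an alpha ring gene, had 459.8, 387, 306 and 321 TPM in DECP libraries, against 206, 196, 191 and 185 TPM in DECN libraries. Every DECP library stood above every DECN library, and DECP replicate 1 was the highest. The means were 368 ± 70.3 TPM in DECP and 195 ± 8.73 TPM in DECN (SD, n = 4 each), with log2 difference 0.90, SE 0.14, adjusted p = 0.00386. Psma4 was called in each of the 25 alternatives run for it, as were Psmd7 and Psmd14 below.

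Psma3 had 992, 1105, 933 and 987 TPM in DECP libraries and 638, 682, 606 and 650.2 TPM in DECN libraries. The lowest DECP library stood well above the highest DECN library, and the replicates lay close together, with log2 difference 0.64, SE 0.089, adjusted p = 0.00199. Psma6 had 522, 421, 497 and 469 TPM in DECP libraries and 344, 274, 224 and 295 TPM in DECN libraries, with log2 difference 0.76, SE 0.13, adjusted p = 0.00724. Psma2 had 828, 777, 786 and 718 TPM in DECP libraries and 579, 606, 474 and 507 TPM in DECN libraries, with log2 difference 0.53, SE 0.099, adjusted p = 0.0108. For both the groups did not overlap, and the calls of Psma2, Psma3 and Psma6 were lost in 1 of 25 alternatives, a fit without the intensity trend. The other alpha genes rose by 0.58 (Psma1), 0.69 (Psma5) and 0.51 (Psma7) on the log2 scale, again without overlap, but their calls were lost in 14, 7 and 9 of the 25 alternatives.

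**Figure D1:**
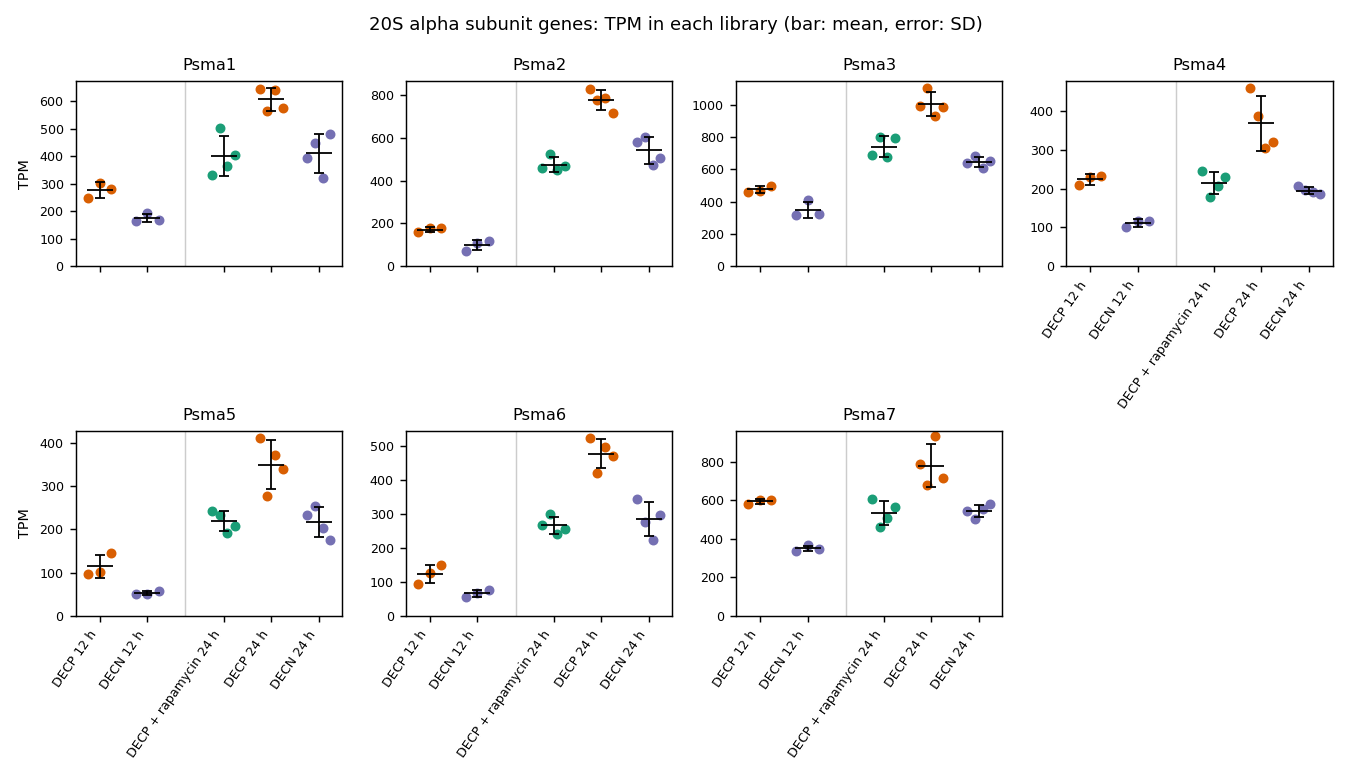
TPM of the 7 alpha genes of the 20S core (y axis, from 0) in each library of the 5 groups (x axis, 12 h left of the grey line and 24 h right of it). Points are libraries, horizontal bars are means and error bars are SD. At 24 h all 4 untreated DECP libraries stand above all 4 rapamycin-treated DECP and all 4 DECN libraries in every panel.

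The promoters of the alpha genes are shown because these genes moved together in both comparisons at 24 h. RefSeq windows from 250 bases before to 50 bases after the start, on build GRCm38.p6, were held for 41 of the 49 genes, among them all 7 alpha genes. Where a gene had more than 1 window the first listed was used. Capitals mark matches of the 6 motifs searched, each on both strands. The antioxidant response element, which NFE2L1 and NFE2L2 bind, was searched as TGACNNNGC. The E box was searched as CACGTG. The box bound by NF-Y was searched as CCAAT. The STAT motif was searched as TTCNNNGAA, and the core of the interferon-stimulated element as GAAANNGAA. The TATA box was searched as TATAAA. The windows are those of Psma1 (chr7:114276067-114276366, minus strand), Psma3 (chr12:70974373-70974672, plus strand), Psma6 (chr12:55383972-55384271, plus strand), Psma4 (chr9:54950609-54950908, plus strand), and, from genes that were not called, Psmb5 (chr14:54617946-54618245, minus strand) and Psmb8 (chr17:34197945-34198244, plus strand), all written 5′ to 3′.
Psma1: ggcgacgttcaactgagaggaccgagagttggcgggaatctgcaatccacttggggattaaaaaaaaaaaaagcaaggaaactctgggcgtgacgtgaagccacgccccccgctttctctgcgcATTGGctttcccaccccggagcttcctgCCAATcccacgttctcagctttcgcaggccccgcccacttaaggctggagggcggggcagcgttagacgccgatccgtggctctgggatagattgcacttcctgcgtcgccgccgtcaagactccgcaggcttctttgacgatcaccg
Psma3: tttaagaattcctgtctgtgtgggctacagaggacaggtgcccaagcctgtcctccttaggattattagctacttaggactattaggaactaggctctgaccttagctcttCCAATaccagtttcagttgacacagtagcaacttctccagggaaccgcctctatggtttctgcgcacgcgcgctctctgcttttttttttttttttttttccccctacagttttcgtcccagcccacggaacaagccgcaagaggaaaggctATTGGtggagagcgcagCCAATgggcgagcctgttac
Psma6: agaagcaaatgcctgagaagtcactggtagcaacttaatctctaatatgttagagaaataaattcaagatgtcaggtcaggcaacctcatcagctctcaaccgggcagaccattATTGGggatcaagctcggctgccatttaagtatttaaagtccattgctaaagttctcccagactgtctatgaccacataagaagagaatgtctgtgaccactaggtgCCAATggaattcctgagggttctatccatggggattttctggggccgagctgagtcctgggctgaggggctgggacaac
Psma4: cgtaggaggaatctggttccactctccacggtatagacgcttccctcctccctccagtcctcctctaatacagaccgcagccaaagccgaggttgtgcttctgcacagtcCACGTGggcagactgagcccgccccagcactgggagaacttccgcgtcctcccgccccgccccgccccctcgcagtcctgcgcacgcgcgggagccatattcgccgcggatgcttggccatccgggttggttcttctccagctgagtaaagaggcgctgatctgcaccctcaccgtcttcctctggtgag
Psmb5: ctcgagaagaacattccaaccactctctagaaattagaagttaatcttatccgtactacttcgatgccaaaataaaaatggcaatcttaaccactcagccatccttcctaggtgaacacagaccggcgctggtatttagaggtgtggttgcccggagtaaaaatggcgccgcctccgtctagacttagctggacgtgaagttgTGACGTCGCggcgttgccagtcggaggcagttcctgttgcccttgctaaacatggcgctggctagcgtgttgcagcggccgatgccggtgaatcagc
Psmb8: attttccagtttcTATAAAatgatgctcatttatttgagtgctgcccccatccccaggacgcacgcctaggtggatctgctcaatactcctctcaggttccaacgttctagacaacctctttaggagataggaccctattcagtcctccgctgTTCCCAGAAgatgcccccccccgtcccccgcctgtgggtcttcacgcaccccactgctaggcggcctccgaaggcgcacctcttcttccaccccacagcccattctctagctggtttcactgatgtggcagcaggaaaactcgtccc
CCAAT occurred in 5 of the 7 alpha gene windows, and in 37.9% of all 27025 promoter windows. It lay with its leftmost base 126 and 98 bases before the start in Psma1, 139 bases before it in Psma3, 136 and 29 in Psma6, 54 in Psma2 and 196 in Psma7. Psma3 held it a further 2 times after the start, and Psma4 and Psma5 lacked it. Over all 41 proteasome gene windows 14 held it (34.1%), which is near the share of all promoters. The antioxidant response element was found in none of the alpha windows and in 2 of 4 constitutive beta windows, those of Psmb5 and Psmb6. Over all 41 windows 6 held it (14.6%), which is near the 12.5% of all promoters. The E box stood in Psma4 alone among the alpha genes (7.24% of all promoters). TTCNNNGAA stood 97 bases before the start of Psmb8 (8.47% of all promoters). The interferon-stimulated part was in none of the 3 immunoproteasome windows and in 2 of 4 constitutive beta windows. Over all 41 windows 6 held it (14.6%), against 8.57% of all promoters. Among the immunoproteasome windows TATAAA was in that of Psmb8 alone (14.2% of all promoters). No motif overlapped another in the windows printed, and a match of letters is not a binding site.

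In the annotation (GENCODE M21, GRCm38) the alpha genes are spread over 6 chromosomes, with Psma3 (70974621 to 70996347) and Psma6 (55384222 to 55418454) both on chromosome 12. Psma4 (ENSMUSG00000032301) lies on the forward strand of chromosome 9 at 54950790 to 54958030. Of the 49 genes 14 share exon sequence with another annotated gene. They are Psma4, Psma5, Psmb5, Psmb7, Psmb8, Psmb9 (with Tap1), Psmc3, Psmd1, Psmd3, Psmd9, Psmd13, Psme1, Psme2b and Psmg3. The library kit does not mark strand, so reads from a shared stretch cannot be told apart.

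The constitutive beta genes lay higher in DECP cells at 24 h without passing the test. All 7 log2 differences were positive, between 0.13 and 0.63, with a median of 0.38. Psmb5 had 477, 260.3, 392 and 294 TPM in DECP libraries, against 253, 288, 228 and 277 TPM in DECN libraries. The groups overlapped, with DECP replicates 1 and 3 the highest (log2 difference 0.41, SE 0.19, adjusted p = 0.282). Psmb6 and Psmb7, the other proteolytic subunits, did not overlap between the groups, with log2 differences of 0.62 (adjusted p = 0.110) and 0.63 (adjusted p = 0.149). Psmb2, whose subunit is not proteolytic, also did not overlap (log2 difference 0.38, SE 0.13, adjusted p = 0.126). Whether the alpha genes differed from the constitutive beta genes in their response was not tested.

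The ATPase genes showed the same direction, with 6 of 6 log2 differences positive, between 0.34 and 0.55, and none called. Psmc1, an ATPase of the ring that unfolds substrates, was the only one whose groups did not overlap, with 258, 162, 224 and 182 TPM in DECP and 159, 137, 138 and 123 TPM in DECN libraries. The lowest DECP library exceeded the highest DECN library by little (log2 difference 0.55, SE 0.21, adjusted p = 0.180).

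Among the non-ATPase genes the rises were those of Psmd1, Psmd6, Psmd7, Psmd12 and Psmd14. Psmd14 encodes the deubiquitinase of the lid, which cuts the ubiquitin chain from the substrate. It had 338, 360.3, 291 and 358 TPM in DECP libraries, against 174, 215, 167 and 214 TPM in DECN libraries. The groups were wide apart (log2 difference 0.81, SE 0.13, adjusted p = 0.00401). Its partner in the lid, Psmd7, had 219, 175, 169 and 159 TPM in DECP libraries, against 81.2, 103, 88.4 and 103 TPM in DECN libraries. The groups did not overlap (log2 difference 0.93, SE 0.14, adjusted p = 0.00279), and Psmd7 and Psmd14 were among the 3 genes still called without the intensity trend, together with Psma4. The scaffold gene Psmd1 had 151, 129.6, 126 and 132 TPM in DECP libraries, against 80.3, 78.6, 86.1 and 79.3 TPM in DECN libraries. Its DECN values lay within a narrow range (log2 difference 0.72, SE 0.14, adjusted p = 0.0127). The lid scaffold genes Psmd12 and Psmd6 rose by 0.89 (adjusted p = 0.0200) and 0.60 (adjusted p = 0.0308), with Psmd12 highest in DECP replicate 1 (264 TPM, others 189.6 to 193) and Psmd6 highest among DECN libraries in replicate 1 (183 TPM, others 132 to 136).
Psmd11, a lid scaffold gene, had 198, 294, 196 and 209 TPM in DECP and 188, 156, 174 and 157 TPM in DECN libraries and was not called (log2 difference 0.39, SE 0.15, adjusted p = 0.195), although the groups did not overlap. The base assembly chaperone genes Psmd5, Psmd9 and Psmd10 had log2 differences of -0.11, 0.30 and -0.35 and were not called.

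The activators and the inhibitor did not pass the test at 24 h. Psme1 and Psme2 encode the PA28 cap that opens the core without ubiquitin. Psme1 had 775, 862, 957 and 904 TPM in DECP libraries, against 808, 782, 874 and 889 TPM in DECN libraries (log2 difference 0.058, SE 0.10, adjusted p = 0.835), and the groups overlapped fully. Psme2 had 445, 539, 514 and 500.0 TPM in DECP libraries, against 421, 411, 371 and 358 TPM in DECN libraries, which did not overlap (log2 difference 0.35, SE 0.11, adjusted p = 0.108). Psme2b, the near-identical copy of Psme2, had a log2 difference of -0.48, opposite in direction to Psme2, and was not called. The nuclear activator gene Psme3 (0.53), the large nuclear activator gene Psme4 (-0.050) and the inhibitor gene Psmf1 (0.031) had adjusted p-values of 0.541, 0.961 and 0.962.
Of the chaperones that assemble the alpha ring, Psmg2 had 79.3, 108, 116 and 88.6 TPM in DECP libraries, against 57.9, 51.3, 62.3 and 35.7 TPM in DECN libraries, without overlap (log2 difference 0.92, SE 0.20, adjusted p = 0.0243). Psmg1, which binds Psmg2, had 86.0, 53.9, 114 and 73.0 TPM in DECP libraries, against 44.0, 31.0, 46.1 and 46.1 TPM in DECN libraries, also without overlap but not called (log2 difference 0.92, SE 0.27, adjusted p = 0.0765). Psmg3 and Psmg4, which form the other chaperone pair, had log2 differences of 0.17 and 0.015, and their groups overlapped. In all, 21 of the 48 proteasome genes had every DECP library above every DECN library at 24 h, against 6.81% of all genes, and none had the reverse.

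**Figure D2:**
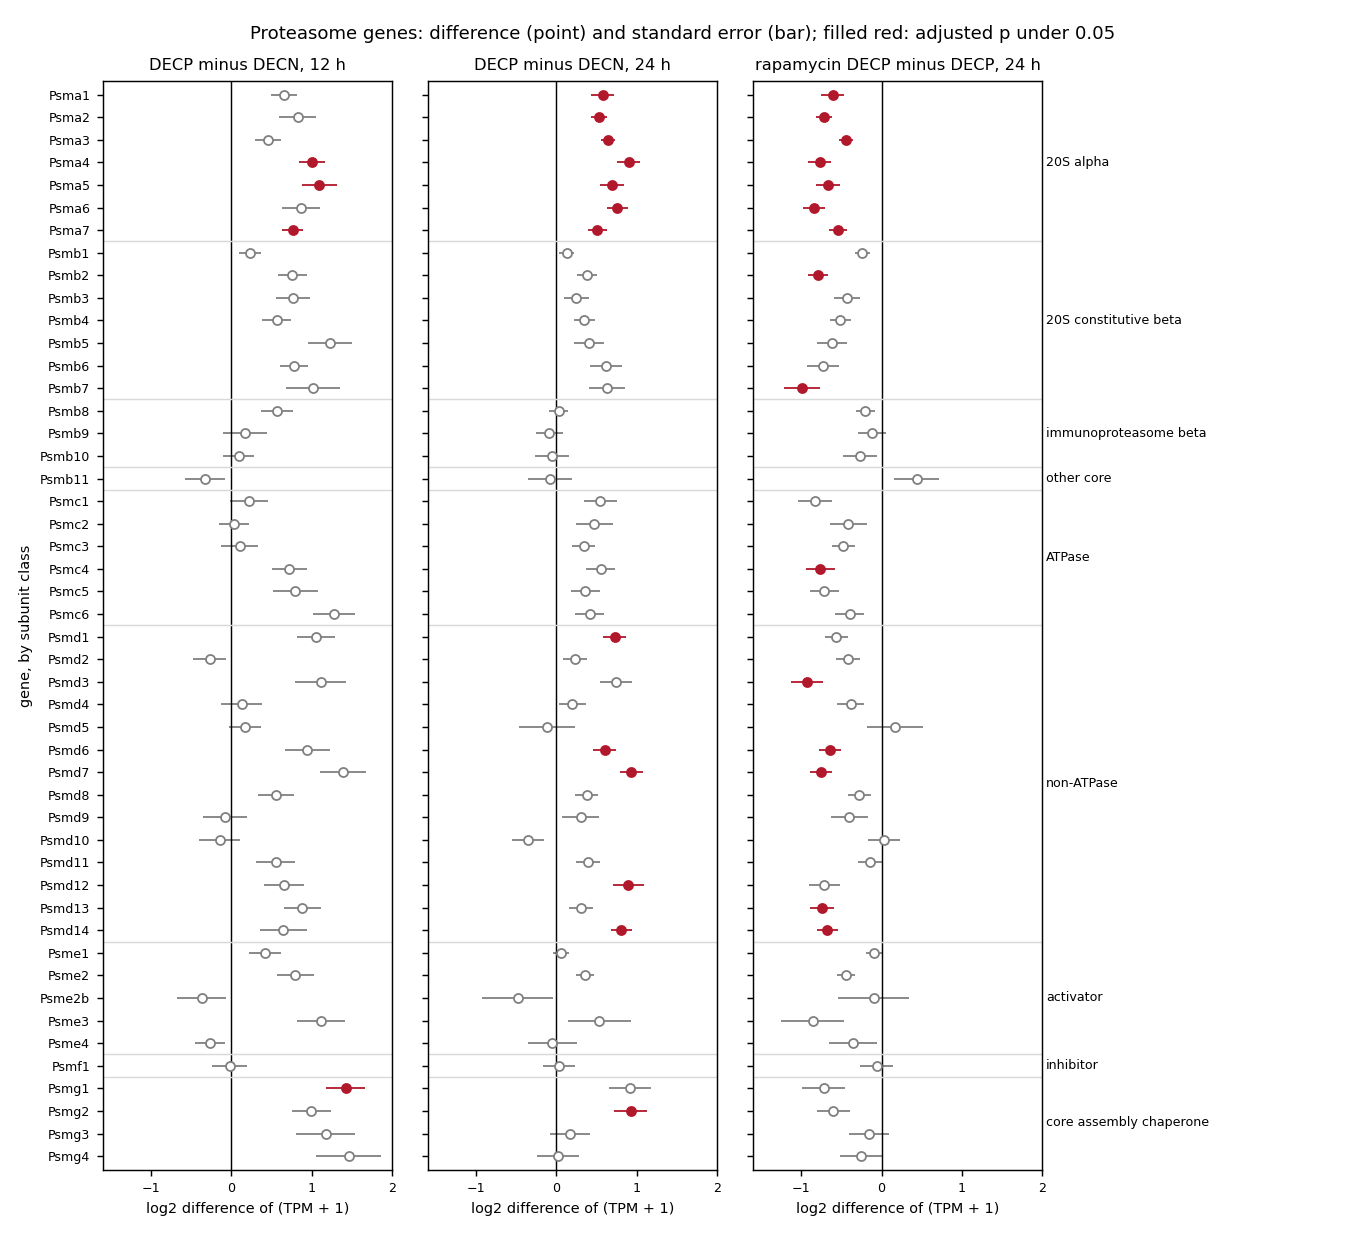
Log2 difference of TPM + 1 (x axis) for the 48 tested proteasome genes (y axis, by class) in the 3 comparisons, with standard errors as bars. Filled red points passed the test: 4 at 12 h, 13 at 24 h and 15 with rapamycin. The 3 immunoproteasome genes lie near 0 in the 24 h panel of DECP minus DECN while the 7 alpha genes lie between 0.51 and 0.90.

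The same question at 12 h rested on 3 libraries per group. Psma4, Psma5, Psma7 and Psmg1 rose in DECP cells, 4 of 48 proteasome genes against 1.84% of all 13429 genes, and none fell. The median log2 difference was 0.69 over the proteasome genes and -0.054 over all genes. None of the 4 calls was made once any 1 of the 6 libraries was left out. At an unadjusted p under 0.05 limma had 30 of the 48 higher, against 10.8% of all genes, and 0 lower.

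Psma4 had 209, 231 and 233 TPM in DECP libraries, against 99.99, 117 and 116 TPM in DECN libraries, and Psma7 had 581, 604 and 601 TPM in DECP libraries, against 338, 366 and 347 TPM in DECN libraries. For both the replicates lay close together and the groups far apart, with log2 difference 1.01, SE 0.16, adjusted p = 0.0298 for Psma4 and log2 difference 0.76, SE 0.13, adjusted p = 0.0339 for Psma7. Psma5 had 96.8, 101 and 146 TPM in DECP libraries, against 50.2, 49.8 and 56.8 TPM in DECN libraries (log2 difference 1.10, SE 0.22, adjusted p = 0.0487). DECP replicate 3 was the highest, and every DECP library exceeded every DECN library. The other alpha genes had log2 differences of 0.66 (Psma1), 0.83 (Psma2), 0.46 (Psma3) and 0.87 (Psma6), with adjusted p-values between 0.0800 and 0.168 and no overlap. The alpha ring chaperone gene Psmg1 had 40.8, 42.3 and 52.6 TPM in DECP libraries, against 18.5, 13.1 and 17.3 TPM in DECN libraries (log2 difference 1.43, SE 0.24, adjusted p = 0.0338). Psmg2, Psmg3 and Psmg4 were higher in every DECP library without being called, with log2 differences of 0.996, 1.17 and 1.46.

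All 14 alpha and constitutive beta genes had every DECP library above every DECN library at 12 h, as did 32 of the 48 proteasome genes, against 12.6% of all genes. Psmb5 had 60.1, 54.5 and 97.1 TPM in DECP libraries, against 32.8, 27.9 and 25.7 TPM in DECN libraries, a wide gap with the spread mainly in DECP replicate 3 (log2 difference 1.23, SE 0.27, adjusted p = 0.0604). Psmb6 and Psmb7 had log2 differences of 0.78 (adjusted p = 0.0629) and 1.02 (adjusted p = 0.151). Of the ATPase genes Psmc4, Psmc5 and Psmc6 did not overlap between the groups (0.72, 0.80 and 1.27), while Psmc1, Psmc2 and Psmc3 overlapped (0.22, 0.031 and 0.10). Among the non-ATPase genes Psmd7 had 148, 132 and 197 TPM in DECP libraries, against 46.3, 51.5 and 86.3 TPM in DECN libraries, with no overlap and just short of a call (log2 difference 1.39, SE 0.29, adjusted p = 0.0508). Psmd14 and Psmd11 had log2 differences of 0.65 and 0.55 (adjusted p = 0.281 and 0.261). The activator genes had log2 differences of 0.42 (Psme1), 0.80 (Psme2), 1.11 (Psme3), -0.27 (Psme4) and -0.37 (Psme2b), and the inhibitor gene Psmf1 one of -0.022. None was called. Psmb11 was the only proteasome gene with every DECP library below every DECN library.

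To ask whether the difference between DECP and DECN cells changed with time, the 24 h difference was set against the 12 h difference in a fit over all 18 libraries. None of the 48 genes passed by limma, against 0.852% of all genes called in either direction. At an unadjusted p under 0.05, 0 of 48 were higher and 6 lower. Taken in either direction that is near the share of all genes, 11%. The share of all genes that were lower was not counted. The median change of the difference was -0.21, against 0.0093 for all genes. Of the 48 changes 36 were negative and 12 positive. The alpha genes had 24 h differences within 0.41 of their 12 h differences on the log2 scale. The largest changes were those of Psmg4 (-1.44, adjusted p = 0.186) and Psmg3 (-1.01, adjusted p = 0.379). Time cannot be told apart from the table, since each time has its own. Without DECP 12 h replicate 2 Psmg4 was called, with a fall of the difference (-1.85, adjusted p = 0.0386).

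Rapamycin given with the antibody was tested at 24 h against DECP cells without it, and these DECP libraries are the same ones that were set against DECN above. With rapamycin all 7 alpha genes fell, by between 0.44 and 0.84 on the log2 scale. Psmb2 and Psmb7 fell among the constitutive beta genes, Psmc4 among the ATPase genes and Psmd3, Psmd6, Psmd7, Psmd13 and Psmd14 among the non-ATPase genes. In all 15 of 48 proteasome genes fell, against 1.53% of all genes, and none rose. The median log2 difference was -0.50 over the proteasome genes and 0.022 over all genes. The count depended on the fit, the scaling and single libraries. It was 0 without the intensity trend, 5 with no filter on low values, 5 with the replicate number as a block and 7 with only the 2 groups in the fit. With TPM rescaled without ribosomal protein genes, whose share was higher in the rapamycin libraries, Psma2, Psma6 and Psmb2 were called, and all 7 alpha genes were still lower, by a median of -0.59. With quantile scaling Psma2 and Psma6 were called. Calls numbered 5, 8 and 7 without DECP replicates 1, 2 and 3, and 8, 6 and 6 without rapamycin replicates 1, 3 and 4, and between 3 and 7 of the alpha genes passed with any 1 library left out. Of 25 alternatives, the call was lost in 1 for Psma2 and Psma6, 2 for Psmb2, 5 for Psma4 and Psmd7, and 8 for Psma3. It was lost in 10 for Psmd14, 11 for Psma7 and Psmd13, 13 for Psmd3, 14 for Psma5 and Psmd6, 16 for Psmc4, and 18 for Psma1 and Psmb7. Under each second index all 7 alpha genes were lower with rapamycin, with medians of -0.65 and -0.56.

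Psma6 had 266, 299.9, 242 and 255 TPM in rapamycin-treated DECP libraries, against 522, 421, 497 and 469 TPM in DECP libraries. The groups were far apart, with means of 266 ± 24.9 TPM with rapamycin and 477 ± 43.4 TPM without it (SD, n = 4 each) and log2 difference -0.84, SE 0.13, adjusted p = 0.00874. Psma2 had 460.1, 524, 448 and 467 TPM in rapamycin-treated DECP libraries, against 828, 777, 786 and 718 TPM in DECP libraries. The highest treated library was below the lowest untreated one (log2 difference -0.71, SE 0.099, adjusted p = 0.00407). Psma4 had 245, 178, 206 and 229.6 TPM in rapamycin-treated DECP libraries and the DECP values given above (log2 difference -0.77, SE 0.14, adjusted p = 0.0183). Psma3 had 688, 801, 678 and 795 TPM in rapamycin-treated DECP libraries, the smallest fall of the ring (log2 difference -0.44, SE 0.089, adjusted p = 0.0243). Psma1, Psma5 and Psma7 fell by 0.61, 0.67 and 0.54 on the log2 scale, with adjusted p-values between 0.0298 and 0.0494. In none of the 7 did the groups overlap.

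Psmb2 had 276, 254, 239.7 and 293 TPM in rapamycin-treated DECP libraries, against 459.7, 404, 592 and 404 TPM in DECP libraries. All treated libraries were below all untreated ones (log2 difference -0.79, SE 0.13, adjusted p = 0.00926). Psmb7, the trypsin-like subunit gene, had 126, 67.6, 132 and 132 TPM in rapamycin-treated DECP libraries, against 299, 246, 186 and 174 TPM in DECP libraries. Rapamycin replicate 2 was the lowest by far, and DECP replicate 1 the highest (log2 difference -0.995, SE 0.22, adjusted p = 0.0374). Psmb5 and Psmb6 had log2 differences of -0.61 (adjusted p = 0.128) and -0.73 (adjusted p = 0.0831). The ATPase gene Psmc4 had 130.2, 112, 119 and 137 TPM in rapamycin-treated DECP libraries, against 226, 224, 198 and 199 TPM in DECP libraries, with no overlap (log2 difference -0.76, SE 0.18, adjusted p = 0.0446). All 6 ATPase genes had negative log2 differences, between -0.83 and -0.40.

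Psmd14 had 236, 219, 208 and 180.1 TPM in rapamycin-treated DECP libraries, against 338, 360.3, 291 and 358 TPM in DECP libraries, with no overlap (log2 difference -0.68, SE 0.13, adjusted p = 0.0205). Psmd3, a lid scaffold gene, had 31.0, 34.3, 36.5 and 44.6 TPM in rapamycin-treated DECP libraries, against 86.6, 54.0, 82.4 and 62.1 TPM in DECP libraries (log2 difference -0.93, SE 0.20, adjusted p = 0.0296). Every treated library was lower, with the widest spread among the untreated ones. Psmd7, Psmd13 and Psmd6 fell by 0.75, 0.74 and 0.64 on the log2 scale, while Psmd11 overlapped between the groups (-0.14, adjusted p = 0.763). The activator genes had log2 differences of -0.095 (Psme1), -0.45 (Psme2), -0.86 (Psme3) and -0.35 (Psme4), none called, and Psmf1 one of -0.062. Psme2b, also not called, had means of 20.7 TPM with rapamycin and 21.4 TPM in DECP. The assembly chaperone genes Psmg1, Psmg2, Psmg3 and Psmg4 had -0.72, -0.60, -0.16 and -0.26, also none called. In 25 of 48 proteasome genes every treated library lay below every untreated one, against 5.33% of all genes.

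Rapamycin-treated DECP cells were also set against DECN cells. None of the 48 genes was called by limma, against 1.31% of all genes called in either direction. At an unadjusted p under 0.05 Psma3 was higher and Psmb2 and Psmd13 lower, 3 of 48, against 13.3% of all genes in either direction. The median log2 difference was -0.11, against 0.021 for all genes. For the alpha genes the log2 differences lay between -0.19 (Psma2, SE 0.099) and 0.20 (Psma3, SE 0.089). All 7 constitutive beta genes had negative differences, between -0.41 and -0.11. Psmb2 had the lowest (SE 0.13, adjusted p = 0.167) and every rapamycin library below every DECN library. Psmb5, Psmb6 and Psmb7 had -0.21, -0.11 and -0.36. The 14 non-ATPase genes lay between -0.43 (Psmd13, SE 0.15, adjusted p = 0.230) and 0.25, and the lid genes Psmd14 and Psmd11 had 0.13 and 0.25. Psmb8, Psmb9 and Psmb10 had -0.17, -0.21 and -0.33. The activator genes Psme1 to Psme4 had -0.037, -0.094, -0.32 and -0.40, Psme2b -0.58 and the inhibitor gene Psmf1 -0.032. The chaperone genes Psmg1 to Psmg4 had 0.20, 0.32, 0.012 and -0.24. A difference that missed the threshold does not show that the groups were alike.

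The alpha genes together summed to 2640 to 2995 TPM in rapamycin-treated DECP, 4127 to 4647 TPM in DECP and 2573 to 2962 TPM in DECN libraries at 24 h. Untreated DECP libraries stood apart from both other groups, which overlapped each other. At 12 h the sum was 1847 to 2086 TPM in DECP and 1090 to 1310 TPM in DECN libraries. All 49 proteasome genes together held 9683 to 10200 TPM in rapamycin-treated DECP, 13068 to 15094 TPM in DECP and 9951 to 10858 TPM in DECN libraries at 24 h. The alpha genes made up 27.3 to 30.1% of that sum with rapamycin, 30.4 to 31.7% in DECP and 25.9 to 27.5% in DECN libraries. The 3 immunoproteasome genes made up 11.8 to 12.3% with rapamycin, 8.69 to 11.0% in DECP and 11.4 to 13.7% in DECN libraries, so their share was lower in every untreated DECP library. Their summed level, 1177 to 1236 TPM with rapamycin, 1264 to 1619 TPM in DECP and 1133 to 1489 TPM in DECN libraries, overlapped between DECP and DECN and was lower with rapamycin than in every untreated DECP library. At 12 h the immunoproteasome share overlapped, with 5.62 to 7.13% in DECP and 5.88 to 7.02% in DECN libraries. The activator share at 24 h was 11.4 to 13.9% with rapamycin, 8.68 to 11.4% in DECP and 12.0 to 13.6% in DECN libraries. It too was lower in every untreated DECP library than in every DECN library. A share of a sum falls when other members of the sum rise. Sums and shares were described and not tested.

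**Figure D3:**
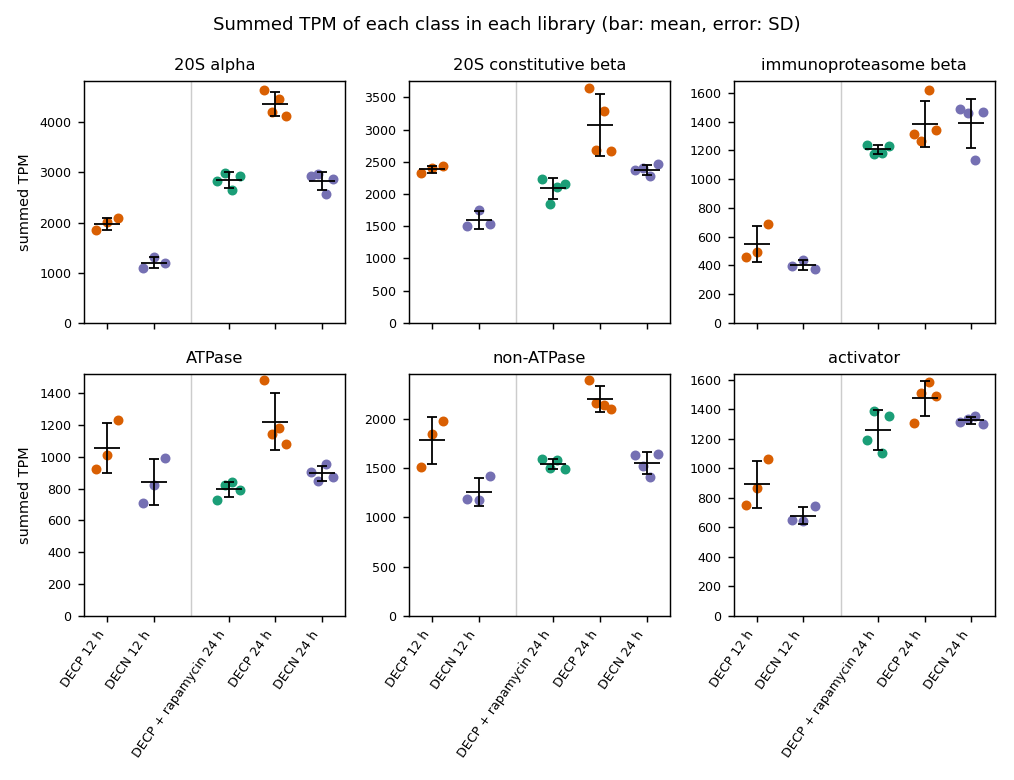
Summed TPM (y axis, from 0) of 6 classes of proteasome genes in each library of the 5 groups (x axis). Points are libraries, horizontal bars are means and error bars are SD. The alpha sum is 4127 to 4647 TPM in untreated DECP libraries at 24 h and at most 2995 TPM in the other 24 h libraries, while the immunoproteasome sum is 1177 to 1236 TPM with rapamycin, 1264 to 1619 TPM in DECP and 1133 to 1489 TPM in DECN libraries, where DECP and DECN overlap.

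None of the 3 immunoproteasome genes was called in any comparison. Psmb8 had 902, 844, 1061 and 819 TPM in DECP libraries at 24 h, against 986, 965, 725 and 893 TPM in DECN libraries (log2 difference 0.027, SE 0.11, adjusted p = 0.943). The groups overlapped and neither stood higher. Psmb9 and Psmb10 had log2 differences of -0.088 (SE 0.17) and -0.059 (SE 0.21), and with rapamycin against DECP the 3 genes had -0.20, -0.12 and -0.27. At 12 h Psmb8 had 318, 339.8 and 499 TPM in DECP libraries, against 247, 261 and 256 TPM in DECN libraries, with no overlap but no call (log2 difference 0.57, SE 0.20, adjusted p = 0.173). Psmb9 and Psmb10 had 0.17 and 0.092 there.

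The balance of each inducible subunit gene over the constitutive gene it replaces was described as a log2 ratio of TPM + 1 in each library. Psmb8 over Psmb5 averaged 2.45 ± 0.15 in DECP and 3.11 ± 0.21 in DECN libraries at 12 h (SD, n = 3 each). Every DECP library had a lower ratio than every DECN library. At 24 h it averaged 1.79 ± 0.19 in rapamycin-treated DECP, 1.38 ± 0.33 in DECP and 1.76 ± 0.13 in DECN libraries (n = 4 each), and the groups overlapped. Psmb9 over Psmb6 averaged 0.30 ± 0.53, -0.30 ± 0.48 and 0.40 ± 0.36 in the same 3 groups, and -1.17 ± 0.26 in DECP and -0.57 ± 0.64 in DECN libraries at 12 h, with overlap throughout. Psmb10 over Psmb7 averaged -1.11 ± 0.33 in DECP and -0.19 ± 0.59 in DECN libraries at 12 h, and -0.41 ± 0.56 with rapamycin, -1.14 ± 0.46 in DECP and -0.45 ± 0.36 in DECN libraries at 24 h. Every rapamycin library had a higher Psmb10 ratio than every DECP library, while DECP and DECN overlapped. The gap was small, with a lowest rapamycin ratio of -0.811 and a highest DECP ratio of -0.826. Rapamycin replicate 2, with the lowest Psmb7 level, had the highest ratio (0.408). In all 3 pairs the mean ratio was lower in DECP than in DECN at both times. The groups overlapped in each case but Psmb8 over Psmb5 at 12 h. By limma neither the inducible genes nor Psmb5, Psmb6 and Psmb7 were called between DECP and DECN. In the authors' deposited comparison at 12 h Psmb5, Psmb6 and Psmb7 were higher in DECP at an adjusted p under 0.05, and the inducible genes did not pass.

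**Figure D4:**
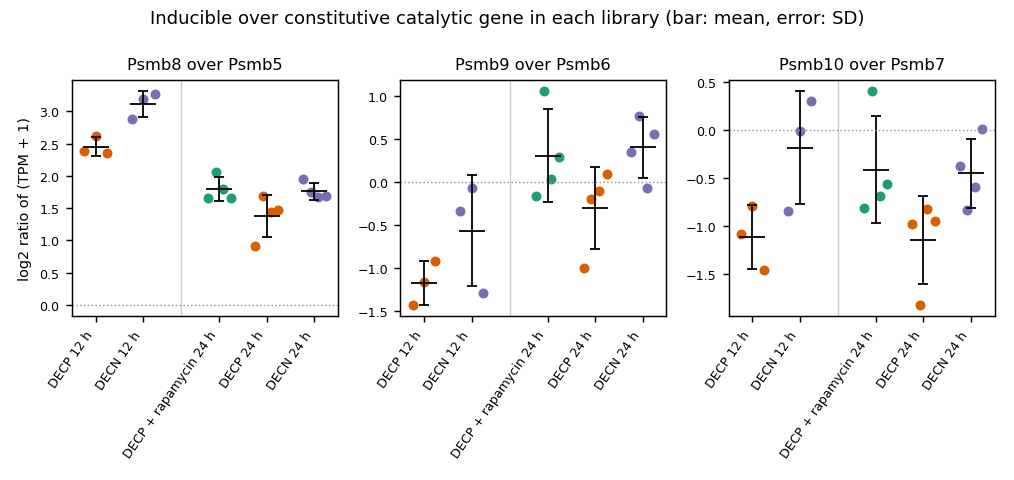
Log2 ratio of TPM + 1 (y axis) of each inducible catalytic gene over its constitutive counterpart in each library of the 5 groups (x axis). Points are libraries, horizontal bars are means, error bars are SD and the dotted line marks equal levels. Psmb8 over Psmb5 is 2.35 to 2.62 in DECP and 2.88 to 3.27 in DECN libraries at 12 h, and the pairs mostly overlap at 24 h.

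The authors' deposited tables of their own comparisons were read at an adjusted p of 0.05. At 12 h 23 of 48 were higher in DECP, against 7.21% of all genes with an adjusted p, and at 24 h 15 of 48 were higher, against 5.2%. Rapamycin-treated DECP was lower than DECP for 24 of 48 in the authors' deposited table, against 5.5% of genes. Between rapamycin-treated DECP and DECN 0 of 48 were higher, against 1.84% of genes, and 0 were lower. The share of all genes that were lower there was not counted. The authors' deposited table for 24 h held all 7 alpha, 6 non-ATPase and 2 core assembly chaperone genes as higher in DECP. It held no beta, ATPase or activator gene as higher. At 12 h 6 alpha, 5 constitutive beta, 1 ATPase, 5 non-ATPase, 2 activator and 4 chaperone genes were higher in DECP. The 5 constitutive beta genes included Psmb5, Psmb6 and Psmb7. In the authors' deposited table for rapamycin against DECP all 7 alpha, 4 constitutive beta, 4 ATPase, 7 non-ATPase, 1 activator and 1 chaperone gene were lower. No immunoproteasome gene passed in any of the authors' deposited tables.

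Genes that work with the proteasome were taken as lists, and values given for them are log2 differences with limma's adjusted p. Of 17 genes for proteasome-associated proteins, 2 rose in DECP over DECN cells at 24 h, where 2.72% of all genes rose, and none was called in the other comparisons. Usp14, a deubiquitinase that rides on the regulatory particle, had 108 to 159 TPM in DECP libraries, against 65.4 to 91.0 TPM in DECN libraries, without overlap (log2 difference 0.83, SE 0.18, adjusted p = 0.0200). Txnl1, a thioredoxin-like protein of the regulatory particle, had 39.8 to 61.3 TPM in DECP libraries, against 15.8 to 34.4 TPM in DECN libraries (log2 difference 0.93, SE 0.23, adjusted p = 0.0442). At 12 h the smallest p-values in that list were those of the ubiquitin receptor gene Adrm1 (log2 difference 0.92, SE 0.25, adjusted p = 0.0952) and of Pomp, which matures the core (log2 difference 0.49, SE 0.15, adjusted p = 0.134). With rapamycin against DECP they were those of Pomp (-0.38, adjusted p = 0.126) and of the lid subunit gene Shfm1 (-0.33, adjusted p = 0.253), and with rapamycin against DECN those of Zfand5 (-0.58, adjusted p = 0.231) and the shuttle receptor gene Ubqln2 (-1.17, adjusted p = 0.234). The median log2 difference of the list was 0.44 at 12 h, 0.12 at 24 h and -0.32 with rapamycin against DECP.

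Calls in the lists that follow stand against 1.84% of all genes higher at 12 h, 2.72% higher at 24 h, and 1.31% (rapamycin-treated DECP against DECN) and 0.852% (change with time) in either direction. Of 6 ubiquitin and E1 genes, Rps27a, which encodes ubiquitin fused to a ribosomal protein, rose in DECP cells at 12 h, with 192 to 367 TPM in DECP libraries, against 74.7 to 94.0 TPM in DECN libraries (log2 difference 1.61, SE 0.26, adjusted p = 0.0307). It was not called at 24 h (0.22, adjusted p = 0.200), and its difference fell with time (-1.39, adjusted p = 0.00534). In this list the difference of 2 genes, Rps27a among them, was called as falling with time. Rps27a was higher in rapamycin-treated DECP than in DECN cells (0.41, adjusted p = 0.0435). Rps27a is also a ribosomal protein gene. The ribosomal protein share was 3.51 to 4.62% in DECP and 1.71 to 2.10% in DECN libraries at 12 h, and at 24 h 23.7 to 26.0% in rapamycin-treated DECP, 18.8 to 22.4% in DECP and 18.6 to 21.3% in DECN libraries, and its part in the Rps27a values was not tested. Uba1, the main E1 enzyme gene, had 0.59, adjusted p = 0.171 at 24 h. Of 8 genes for the p97 segregase, which extracts proteins for degradation, and its adaptors, Nsfl1c rose at 12 h, with 59.0 to 76.4 TPM in DECP libraries, against 24.5 to 27.8 TPM in DECN libraries (log2 difference 1.36, SE 0.21, adjusted p = 0.0251). Vcp, which encodes p97 itself, had 0.50, adjusted p = 0.162 at 12 h, 0.48, adjusted p = 0.127 at 24 h and -0.63, adjusted p = 0.0630 with rapamycin against DECP.

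The NFE2L1 route, in which proteasome shortage releases a transcription factor for proteasome genes, had 11 genes, 10 of them tested, and no call in any comparison by limma. Nfe2l1 itself had 1.41, adjusted p = 0.108 at 12 h and 0.20, adjusted p = 0.846 at 24 h, and Syvn1, a ubiquitin ligase of the endoplasmic reticulum, -0.69, adjusted p = 0.0561 at 24 h. With rapamycin against DECP Mafg, a small partner of NFE2L1, had 1.07, adjusted p = 0.216. Of 10 genes for MHC class I loading, Canx, the chaperone calnexin, rose in DECP over DECN cells at 24 h, with 442 to 578 TPM in DECP libraries, against 336 to 372 TPM in DECN libraries (log2 difference 0.52, SE 0.12, adjusted p = 0.0275). B2m and the peptide transporter gene Tap2 had 0.85, adjusted p = 0.0886 at 12 h and -0.42, adjusted p = 0.280 at 24 h. None of 8 interferon regulator genes was called in any comparison by limma, with -1.50, adjusted p = 0.0700 for Jak2 and -0.47, adjusted p = 0.0992 for Jak1 at 12 h and -0.25, adjusted p = 0.379 for Jak1 and -0.48, adjusted p = 0.392 for Stat2 at 24 h. In the order 12 h, 24 h and rapamycin against DECP, the median log2 differences were 0.65, -0.25 and 0.18 for the ubiquitin and E1 genes, 0.22, 0.27 and -0.26 for p97 and its adaptors, and 0.54, 0.039 and -0.11 for MHC class I loading. They were 0.029, -0.071 and -0.056 for the NFE2L1 route, -0.14, -0.21 and 0.15 for the interferon regulators, and -0.054, 0.00056 and 0.022 for all genes.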

How the data were processed

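RNA of 18 sorted B cell libraries was sequenced from Nextera XT libraries, which do not mark strand, per the labels' protocols. Reads were pseudoaligned with kallisto 0.43.0 and build GRCm38, per the submitters' processing notes. The deposited expression values are a score, TPM with 1 added by the authors, from which 1 was subtracted. The authors' deposited comparison tables give a mean signal per group, a log2 fold change of the first group over the second and a p-value. No source used here names the tool behind those tables. Their log2 values were read with the sign of the second group.

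Genes that reached 1 TPM in 3 or more libraries (12 h) or 4 or more (24 h) were tested on log2(TPM + 1), a scale that understates the change of low genes, with limma 3.58.1 in R 4.3.3 (intensity trend, all groups of a table in 1 fit, two-sided, Benjamini-Hochberg adjustment over all genes tested, threshold 0.05). The time comparison used both tables in 1 fit. Class sums and ratios were described without a test. Gene places came from GENCODE M21, which held all 49 genes, and promoter windows from RefSeq. The script was tested on simulated data. Figures were drawn with matplotlib 3.10.9. The proteasome genes and the gene lists were chosen with earlier results of these data known. Within the lists the text names the genes called and those with the smallest p-values, except for some that are not reported here. Per the labels' protocols the sequencing covered more conditions than the 5 groups held, and the others were not analysed here.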

Additional observations from a re-analysis of the deposited data

Results flagged for a closer look

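In each 24 h group of 4 libraries the highest and the lowest TPM of every proteasome gene was set against the others by Dixon's ratio at its 95% critical value. Of 144 combinations of gene and group, 9 held a library that stood apart, and chance gives about 1 in 20. With rapamycin, Psmb4 had 329 TPM in replicate 3, against 402 to 415 TPM in the other libraries, and Psmb7 had 67.6 TPM in replicate 2, against 126 to 132 TPM. In DECP cells, replicate 1 was high for Psmd12 (264 TPM, others 189.6 to 193) and for Psmd13 (252 TPM, others 224 to 225), and replicate 2 was high for Psmd11 (294 TPM, others 196 to 209). In DECN cells, Psmd6 was high in replicate 1 (183 TPM, others 132 to 136). Psmg1 was low in DECN replicate 2 (31.0 TPM, others 44.0 to 46.1), Psmd8 in DECN replicate 3 (108 TPM, others 153 to 156) and Psmc2 in DECN replicate 4 (79.2 TPM, others 129.9 to 136). No group had a library that stood apart in more than 2 of its genes.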

How the results depend on the processing

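Counts of called proteasome genes moved with the fit, and the cause was not tested. At 12 h (4 called) the count was 0 with no filter, without the intensity trend and with the replicate block, 9 with a filter at TPM 5 and 8 with array weights, and 0 in every fit without 1 library. At 24 h DECP against DECN (13) it was 7 with no filter, 8 with quantile scaling, 3 without the trend, 10 with the replicate block, and 8 to 14 without 1 library. Rapamycin-treated DECP against DECP (15) gave 5 with no filter, 2 with quantile scaling, 3 rescaled without ribosomal protein genes, 0 without the trend, 5 with the replicate block, 7 with only the groups compared, and 5 to 15 without 1 library. Rapamycin-treated DECP against DECN had 0 in all alternatives, and the time comparison 0 except 1 without DECP 12 h replicate 2 (0 to 1). The labels do not pair same-numbered libraries, whose deviations from the group means had correlations of -0.0571 to 0.0918. The alpha genes kept their direction in every alternative run for the 3 comparisons that called them.

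Rescaled without ribosomal protein genes, the log2 difference of summed TPM was -0.53 (alpha) and -0.43 (non-ATPase) for rapamycin-treated DECP against DECP, and 0.11 (alpha), -0.089 (constitutive beta), -0.071 (ATPase) and 0.098 (non-ATPase) against DECN.

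Signs turned only for genes not called, none of which was called after turning. Under quantile scaling Psmb8 (-0.095), Psme1 (-0.075) and Psmg4 (-0.058) turned for DECP against DECN at 24 h, and Psmb9 (0.11), Psmd11 (0.11) and Psme1 (0.037) for rapamycin-treated DECP against DECP. Under array weights these were Psmb8 (-0.026), Psmf1 (-0.017) and Psmg4 (-0.083) at 24 h, Psmf1 (0.022) for rapamycin against DECP, and Psmb6 (0.0024), Psmf1 (0.0047) and Psmg3 (-0.085) for rapamycin against DECN. Rescaled without ribosomal protein genes these were Psmf1 at 12 h (0.0027) and with rapamycin against DECP (0.015), and Psme1 (0.065), Psme2 (0.0081) and Psmf1 (0.067) for rapamycin against DECN. Median centring turned Psmg3 (-0.017) for rapamycin against DECN.
Without 1 library the values of genes that turned ranged, for DECP against DECN at 12 h, over Psmf1 (-0.11 to 0.052), Psmb9 (-0.062 to 0.38), and for DECP against DECN at 24 h, over Psmg4 (-0.16 to 0.30), Psmf1 (-0.10 to 0.13), Psmb8 (-0.070 to 0.078), Psmb10 (-0.26 to 0.12), Psmb9 (-0.20 to 0.080), Psme4 (-0.40 to 0.14), and for rapamycin against DECP, over Psmf1 (-0.17 to 0.071), and for rapamycin against DECN, over Psmg3 (-0.12 to 0.15), Psmf1 (-0.12 to 0.064), Psme1 (-0.10 to 0.020), Psmb6 (-0.21 to 0.12).
Counted over all pairs of a named gene's result and an alternative, 244 lost and 11 gained a call. TPM keeps no depth, so what depth limits could not be assessed.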
